A study of Mus musculus with 6 samples.

Results

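The 8 genes described here encode components and regulators of complement: C3, C4b, C1ra, C1s1, Cfb, Serping1, Cd55 and Cd59a. They were found by gene name among the 49592 genes of the deposited table, and each name matched 1 gene. The set was put together because C3 was strongly higher after TWEAK in earlier results of these data, so the difference in C3 is given as a description without a p-value. RNA was sequenced from C2C12 cells, a mouse line of myoblasts that stop dividing and fuse into myotubes in low serum. All cultures had been grown in 10% serum and differentiated for 3 days in 2% serum. The 3 TWEAK libraries came from myotubes given 10 ng/ml of TWEAK for 12 h. TWEAK is a cytokine of the TNF superfamily that binds the receptor Fn14. The 3 untreated libraries came from myotubes without TWEAK, and their labels also give 12 h. Each group's libraries are numbered as trials 1 to 3 in the labels, which do not say whether a trial was a culture of its own. The p-values therefore measure the spread between libraries of 1 cell line, which may be technical.

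Complement is a cascade of plasma and cell-surface proteins that marks and lyses targets. In the classical pathway C1q binds a target, C1r then activates C1s, and C1s cleaves C4 and C2. In the alternative pathway factor B joins C3b to form a C3 convertase, and both routes meet at C3. The inhibitor encoded by Serping1 stops C1r and C1s, Cd55 speeds the decay of convertases and Cd59a blocks the membrane attack complex. Liver supplies most circulating complement, and many other cell types, muscle cells among them, can transcribe some of its genes.

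The libraries held 30050605 to 41005495 reads, recovered from the FPKM values (fragments scaled by gene length and library depth). A count of 0 in a library allows up to 3 reads at this depth. All 8 skeletal myotube markers, Myog, Myod1, Mymk, Des, Ckm, Acta1, Tnnt3 and Myh3, were expressed. Their summed level was 8830 to 9860 FPKM in TWEAK libraries and 9630 to 10700 FPKM in untreated ones. Myog, Mymk and Des had the higher mean with TWEAK, and Myod1, Ckm, Acta1, Tnnt3 and Myh3 the lower. Acta1, the highest, averaged 3340 FPKM with TWEAK and 4000 FPKM without, and Myog averaged 826 FPKM with TWEAK and 706 FPKM without. Of 6 hepatocyte markers, Alb, Apoa1, Ttr, Serpina1a and Fgb had no reads, and Ahsg had 3. Of 10 macrophage and leukocyte markers, Adgre1, Tyrobp and Aif1 had no reads and Ptprc had 3; their summed level was 5.69 to 7.01 FPKM with TWEAK and 4.78 to 5.48 FPKM without, of which Cd14 and Cd68 made up most. The 4 endothelial markers summed to at most 0.104 FPKM in any library. Adipoq, Fabp4, Plin1 and Lep had 0 to 8 reads each, while Pparg, the fifth adipocyte marker, averaged 1.94 FPKM with TWEAK and 2.93 FPKM without. The part of cells that express Cd14 or Pparg in the differences between groups was not tested.

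C3 was at a level near that of Serping1 in TWEAK-treated myotubes and was almost without reads in untreated ones. C3 (ENSMUSG00000024164.16, chromosome 17, 57510970 to 57535136, GRCm39) encodes the protein on which all complement pathways converge. It was at 2.80, 4.78 and 5.13 FPKM in TWEAK libraries 1, 2 and 3, against 0, 0.0296 and 0.0192 FPKM in untreated libraries 1, 2 and 3. The lowest TWEAK library lay far above every untreated one. In RNA from whole cultures, more expressing cells and more transcript per cell cannot be told apart. These levels rest on 437, 853 and 785 reads with TWEAK and 0, 5 and 4 reads without. The ratio of pooled reads, corrected for library size, was 259 (exact binomial 95% interval 136 to 566, counting error only). Within trial 1, where the untreated library had no C3 read, C3 was at least 158-fold higher with TWEAK against a floor of 3 reads in that library. Within trials 2 and 3 the ratios were 161 and 267, each against 5 reads or fewer. On the log2(FPKM + 1) scale the mean difference was 2.33 (SE 0.16), a value that this scale holds down because the untreated level is near 0. C3 passed the expression minimum used for testing, a mean of 0.5 FPKM over the 6 libraries, through its TWEAK libraries alone. No 50-base word of the C3 transcripts, nor of those of Serping1, occurs in another gene of the GENCODE M21 annotation.

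The sequence before the start of C3 is shown because C3 had the largest difference of the 8 genes, and those of C1ra, C1s1 and Cd55 because the first 2 were higher with TWEAK in every trial and the third lower. RefSeq promoter windows (GRCm38.p6) were matched by symbol for 5 of the 8 genes: C3, C1ra, C1s1, Cd55 and Cd59a. The 250 bases before the start are given 5′ to 3′ on the strand of the gene, at chr17:57228137-57228386 (minus strand) for C3, chr6:124512371-124512620 (plus strand) for C1ra, chr6:124542360-124542609 (minus strand, the farther upstream of 2 annotated starts) for C1s1 and chr1:130462745-130462994 (minus strand) for Cd55, in coordinates that differ from those of the deposited table. Capitals mark full matches to any of the 4 searched motifs.
C3: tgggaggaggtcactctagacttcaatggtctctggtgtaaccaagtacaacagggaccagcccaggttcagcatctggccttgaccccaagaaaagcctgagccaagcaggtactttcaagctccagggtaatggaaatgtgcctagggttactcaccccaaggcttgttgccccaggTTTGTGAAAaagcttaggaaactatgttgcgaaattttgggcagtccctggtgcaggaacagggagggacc
C1ra: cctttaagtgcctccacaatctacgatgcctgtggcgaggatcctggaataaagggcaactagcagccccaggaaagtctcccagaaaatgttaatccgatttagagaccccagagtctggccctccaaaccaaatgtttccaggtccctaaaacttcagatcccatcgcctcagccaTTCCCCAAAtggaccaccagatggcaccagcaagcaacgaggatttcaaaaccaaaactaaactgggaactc
C1s1: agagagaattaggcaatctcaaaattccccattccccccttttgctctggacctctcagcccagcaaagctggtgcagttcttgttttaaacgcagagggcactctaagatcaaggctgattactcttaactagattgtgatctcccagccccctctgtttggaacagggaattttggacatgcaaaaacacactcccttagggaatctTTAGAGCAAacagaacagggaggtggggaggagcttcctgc
Cd55: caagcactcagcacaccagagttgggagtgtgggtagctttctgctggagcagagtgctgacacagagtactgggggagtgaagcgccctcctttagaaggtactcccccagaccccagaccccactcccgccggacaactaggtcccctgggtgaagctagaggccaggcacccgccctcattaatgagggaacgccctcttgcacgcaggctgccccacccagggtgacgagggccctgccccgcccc
The motifs were the NF-kB consensus, the 9-base pattern TTNCNNNAA, an interferon-stimulated response element core (GAAA, 2 free bases, GAAA) and the gamma-activated site (TTCNNNGAA). Each was searched on both strands of the whole 300-base window, which adds 50 bases after the start. TTNCNNNAA is described by its letters only and is not assigned to a factor.

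The NF-kB consensus had no match in the windows of these 5 genes, and 8.46% of all 32851 windows held one. The C3 window held 1 match, to the pattern TTNCNNNAA, at bases -71 to -63 from the start. Of all windows, 36.6% held that pattern. In the C1ra window it matched at -72 to -64, at 16 to 24 and at 33 to 41, the last also a match to the gamma-activated site, which 8.3% of all windows held. The C1s1 window held the pattern TTNCNNNAA at -41 to -33 and, across the start, at -7 to 2. The Cd55 window held none of the 4 motifs. The Cd59a window held overlapping matches to the pattern TTNCNNNAA and to the response element core, which 3.44% of all windows held. A match to letters is a description and does not show that a factor binds.

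**Figure D1:**
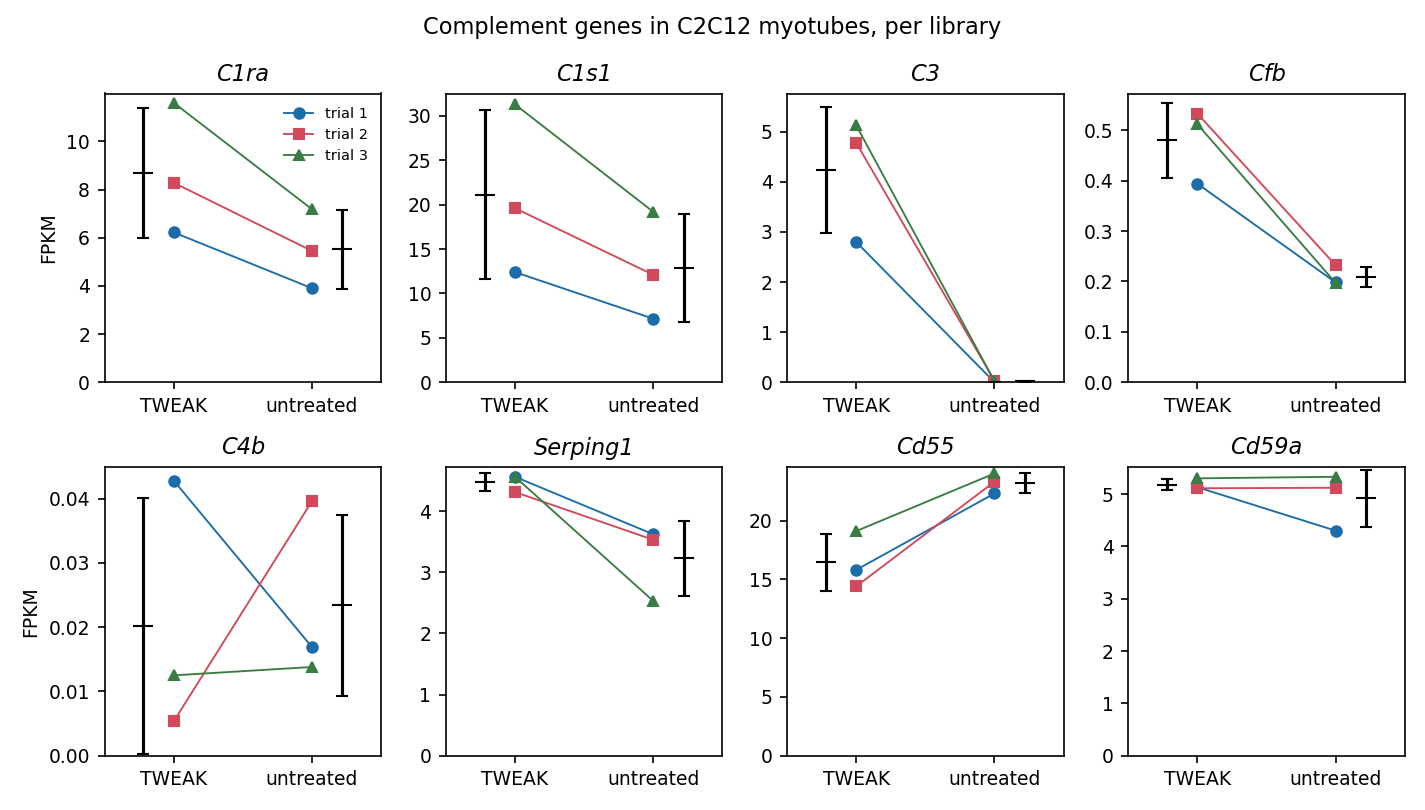
FPKM of the 8 complement genes (each panel with its own linear axis from 0) in TWEAK and untreated libraries, with a line joining the libraries of the same trial number and, beside them, the mean ± SD of 3 libraries. C3 lies between 2.80 and 5.13 FPKM with TWEAK and at or near 0 without; C1ra and C1s1 are higher with TWEAK in each trial while the groups overlap; Cd55 is lower with TWEAK in each trial.

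C1ra (ENSMUSG00000055172.11) and C1s1 (ENSMUSG00000038521.18), which encode the proteases of the first component of the classical pathway, were higher with TWEAK within each trial by similar factors, while their levels differed more between trials than between groups. C1ra was at 6.22, 8.28 and 11.6 FPKM in TWEAK libraries 1, 2 and 3, against 3.90, 5.45 and 7.18 FPKM in untreated libraries 1, 2 and 3. C1s1 was at 12.4, 19.6 and 31.3 FPKM in TWEAK libraries 1, 2 and 3, against 7.15, 12.1 and 19.2 FPKM in untreated libraries 1, 2 and 3. For both genes the groups overlapped, and in both groups trial 1 was lowest and trial 3 highest. Within trials 1, 2 and 3, TWEAK over untreated was 1.59, 1.52 and 1.61 for C1ra and 1.74, 1.62 and 1.63 for C1s1.

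With group as the only term, neither gene passed the threshold: the log2 fold change of C1ra was 0.57 (SE 0.22, 95% interval 0.08 to 1.06, limma adjusted p = 0.113) and that of C1s1 was 0.68 (SE 0.35, 95% interval -0.11 to 1.47, limma adjusted p = 0.225). When the trial number entered as a replicate block, the differences were the same and the errors smaller, at an SE of 0.07 for C1ra (limma adjusted p = 4.05e-05) and 0.06 for C1s1 (limma adjusted p = 3.71e-06). In the authors' deposited table, the log2 fold changes are 0.66 for C1ra (adjusted p = 0.149) and 0.72 for C1s1 (adjusted p = 0.404). Without TWEAK replicate 1, C1ra passed in the fit with group only (limma adjusted p = 0.0337). Apart from that setting, the calls for these genes rest on treating the trial numbers as pairs, which the labels do not state.

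The ratio of C1s1 to C1ra FPKM within a library was 2.00, 2.37 and 2.71 in TWEAK libraries 1, 2 and 3 and 1.83, 2.22 and 2.68 in untreated ones. It differed more between trials than between groups. The genes lie 6901 bases apart on chromosome 6, C1ra at 124489364 to 124500402 and C1s1 at 124507304 to 124519318 (GRCm39). Each has a tandem copy in the same cluster. C1rb, the copy of C1ra, averaged 0.521 FPKM with TWEAK and 0.320 FPKM without, and C1s2, the copy of C1s1, averaged 1.38 FPKM with TWEAK and 0.891 FPKM without. In the transcripts of GENCODE M21, 48.0% of the 50-base words of C1ra also occur in C1rb, and 21.8% of those of C1s1 in C1s2. Over all other genes the shares were 50.8% for C1ra and 35.1% for C1s1. How reads were divided between the copies, or with other genes that share words, is therefore uncertain. The overlapping noncoding gene Gm16567 had 1 read with TWEAK and 1 without, against 5873 and 4165 reads of C1s1.

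The differences between trials were large for C1s1 beside other genes. Its highest library was 2.52 times its lowest among TWEAK libraries and 2.69 times among untreated ones, where the medians over 12758 genes were 1.18 and 1.15. A smaller spread was seen in 98.9% of genes among TWEAK libraries and 99.2% among untreated ones. All 5 tested genes of recognition and initiation, C1ra, C1s1, C1s2, C1rl and Masp1, were lowest in trial 1 in both groups. This was not particular to that role: C8g, Cr1l and Clu, which encodes the regulator clusterin, were also lowest in trial 1 in both groups. So was C3, but its order among untreated libraries rests on 0, 5 and 4 reads. The share of all genes with this order was not counted. The summed myotube markers of trials 1, 2 and 3 were 9100, 8830 and 9860 FPKM with TWEAK and 10600, 10700 and 9630 FPKM without; the part of cell composition in the trial differences was not tested.

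**Figure D2:**
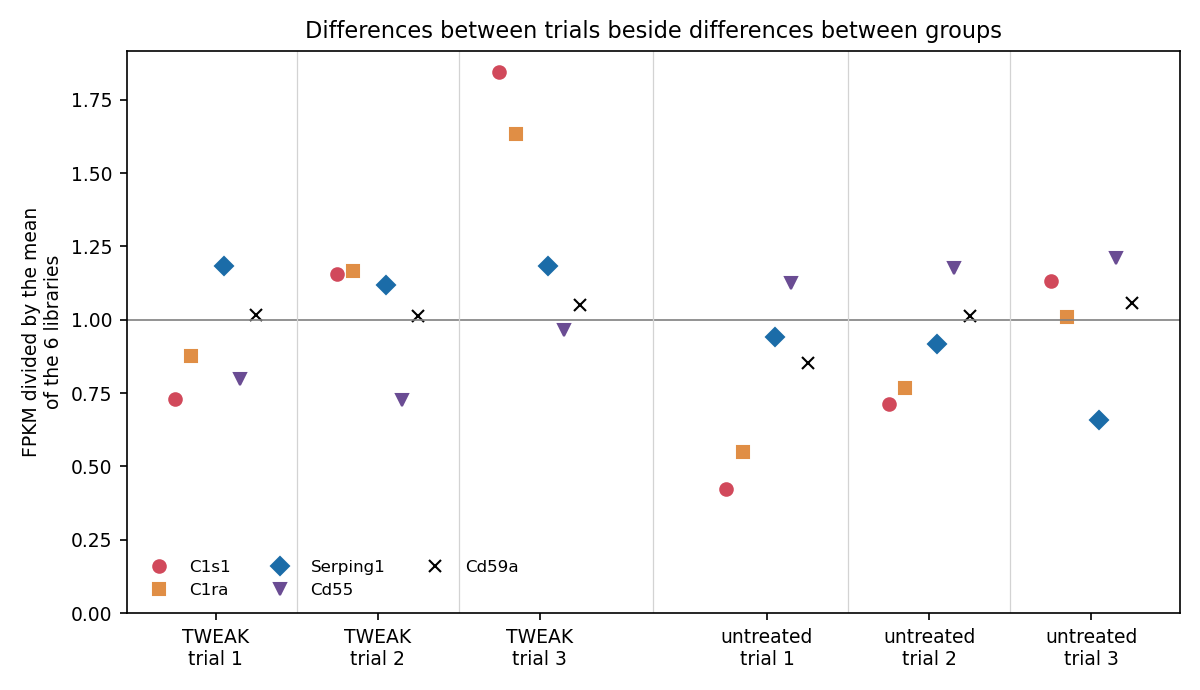
FPKM of 5 complement genes in each library, divided by the mean of that gene over the 6 libraries (1 is the mean; axis from 0). C1s1 and C1ra sit lowest in trial 1 and highest in trial 3 in both groups, while Serping1 is above 1 in the 3 TWEAK libraries and Cd55 is below 1 in them.

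Cfb and C4b, which encode subunits of the C3 convertases or their precursors, were low in both groups and lay below the expression minimum. Cfb (ENSMUSG00000090231.11) encodes factor B, the protease subunit of the alternative pathway convertase. It was at 0.394, 0.533 and 0.512 FPKM in TWEAK libraries 1, 2 and 3, against 0.198, 0.232 and 0.197 FPKM in untreated libraries 1, 2 and 3. The groups did not overlap. Pooled over libraries, 126 reads with TWEAK stood against 61 without, a ratio of 2.32 (exact binomial 95% interval 1.69 to 3.20, counting error only). With no minimum on the level, the limma adjusted p of Cfb was 0.0368 over 26302 genes. For Cfb, the authors' deposited table gives 1.20 on the log2 scale (adjusted p = 0.00688).

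C4b (ENSMUSG00000073418.5) encodes the classical C4, which C1s cleaves. It had 7, 1 and 2 reads in TWEAK libraries and 3, 7 and 3 in untreated ones, at 0.0428, 0.00535 and 0.0125 FPKM with TWEAK and 0.0169, 0.0396 and 0.0138 FPKM without. The pooled ratio was 0.863 (exact binomial 95% interval 0.339 to 2.13), so no difference was detectable at this depth. Its near copy C4a, 65212 bases away on chromosome 17, was at 0.633 ± 0.0960 FPKM with TWEAK and 0.617 ± 0.0269 FPKM without (SD, n = 3 each; limma adjusted p = 0.94). Of the 50-base words of C4b, 34.6% also occur in C4a, so the split of reads between them is uncertain. Cfb at 35075350 to 35081494 and C4b at 34947354 to 34962856 share a stretch of chromosome 17 with C2, which lies 85 bases from Cfb and had 26 reads with TWEAK and 24 without. Of the 50-base words of Cfb, 73.0% also occur in Gm20547, a gene model of GENCODE M21 that was not analysed here.

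Serping1 (ENSMUSG00000023224.13, chromosome 2, 84595731 to 84605788, GRCm39) encodes the C1 inhibitor, a serpin that inactivates C1r and C1s. It was at 4.56, 4.31 and 4.56 FPKM in TWEAK libraries 1, 2 and 3, against 3.62, 3.53 and 2.53 FPKM in untreated libraries 1, 2 and 3. Each TWEAK library exceeded each untreated one, and untreated replicate 3 was lowest. Serping1 rose 1.39-fold, with a limma adjusted p of 0.0445 (log2 fold change 0.38, SE 0.11). The call was lost without TWEAK replicate 1, 2 or 3 (limma adjusted p of 0.0793, 0.104 and 0.0922) and without untreated replicate 2 or 3 (0.0716 and 0.0858), and with no minimum on the level (0.154). For Serping1, the authors' deposited table gives 0.48 on the log2 scale (adjusted p = 0.0338). Unlike C1ra and C1s1, it was not lowest in trial 1 in either group. The ratio of C1s1 to Serping1 FPKM was 2.73, 4.55 and 6.87 in TWEAK libraries 1, 2 and 3 and 1.97, 3.43 and 7.61 in untreated ones.

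Cd55 fell, and Cd59a did not pass the test. Cd55 (ENSMUSG00000026399.13, chromosome 1, 130366764 to 130390481, GRCm39) encodes decay-accelerating factor, a membrane protein that takes apart C3 convertases. It was at 15.8, 14.4 and 19.1 FPKM in TWEAK libraries 1, 2 and 3, against 22.3, 23.3 and 24.0 FPKM in untreated libraries 1, 2 and 3. All TWEAK libraries lay below all untreated ones. Cd55 was 1.41-fold lower with TWEAK (log2 fold change -0.48, SE 0.10, limma adjusted p = 0.0114), and it was lower in 3 of 3 trials. The call held without any single library, with limma adjusted p values from 0.00235 to 0.0481, and was lost with no minimum on the level (0.0631). The authors' deposited table gives -0.50 for Cd55 on the log2 scale (adjusted p = 4.23e-05). Its close paralog Cd55b, which shares 8.0% of the 50-base words of Cd55, had 1 read in all, and the overlapping noncoding gene Gm16083 had 2 reads with TWEAK and 10 without, against 4861 and 7754 reads of Cd55.

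Cd59a (ENSMUSG00000032679.13, chromosome 2, 103926146 to 103945699, GRCm39) encodes an inhibitor of the membrane attack complex. It was at 5.13, 5.11 and 5.30 FPKM in TWEAK libraries 1, 2 and 3, against 4.30, 5.12 and 5.33 FPKM in untreated libraries 1, 2 and 3. The groups overlapped. The log2 fold change was 0.07 (95% interval -0.12 to 0.26; limma adjusted p = 0.645), which leaves room for small differences in either direction. The authors' deposited table gives 0.07 for Cd59a on the log2 scale (adjusted p = 0.744). Its paralog Cd59b, which shares 3.87% of the 50-base words, had 2 reads with TWEAK and 1 without. Within a library, the ratio of Cd55 to Cd59a FPKM was 3.09, 2.82 and 3.61 with TWEAK and 5.18, 4.55 and 4.51 without.

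The order of the 8 genes by level differed between groups in the place of C3 and in which of C1s1 and Cd55 came first. In TWEAK libraries the order by mean FPKM was C1s1, Cd55, C1ra, Cd59a, Serping1, C3, Cfb and C4b. The ranges of C1s1 and Cd55 overlapped, as did those of Serping1 and C3, so these neighbours were not separated by the spread between libraries. In untreated libraries the order was Cd55, C1s1, C1ra, Cd59a, Serping1, Cfb, C4b and C3. There the ranges of C1s1 and C1ra overlapped, though C1s1 was the higher in each library, and so did those of C1ra and Cd59a and those of C4b and C3. Within a library, C3 was at 7.09, 8.96 and 10.0 times the FPKM of Cfb with TWEAK and at 0, 0.128 and 0.0974 times without.

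Of the 7 genes other than C3, 5 were tested, of which 1 rose (Serping1) and 1 fell (Cd55). Over all 12770 genes tested, limma called 8.98% higher and 6.1% lower, 15.1% in either direction. With the replicate block 3 of the 5 rose and 1 fell, where 15.4% of all genes were called higher and 12.5% lower, 27.9% in either direction. The ranges of the 2 groups did not overlap for 2 of the 5, Serping1 and Cd55, and for 35.9% of all tested genes. In every trial 3 of the 5 (C1ra, C1s1 and Serping1) were higher with TWEAK, as were 31.0% of tested genes, and 1 of the 5 (Cd55) was lower, as were 27.5%. The members were chosen with results known, so these shares are a description.

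**Figure D3:**
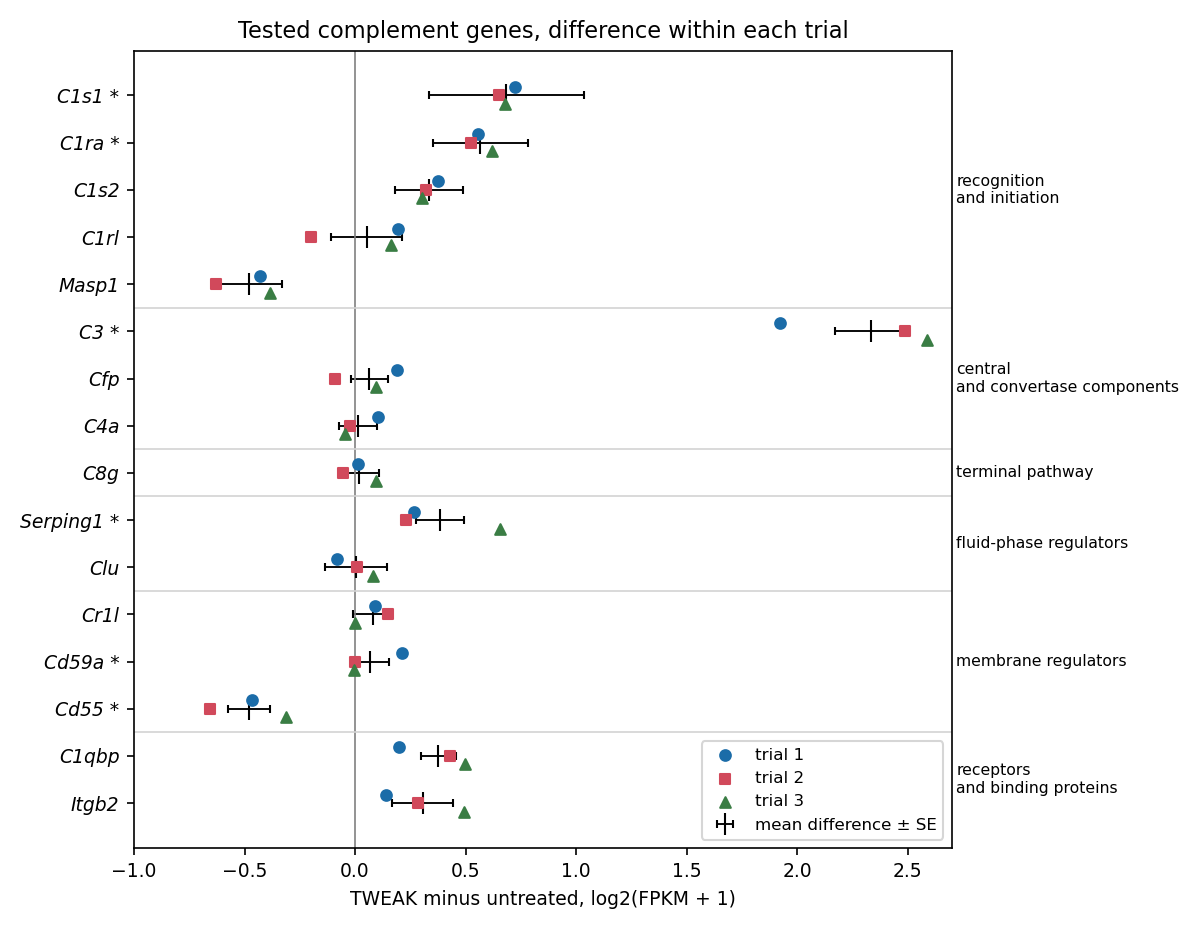
TWEAK minus untreated difference in log2(FPKM + 1) within each trial, for 16 complement genes that reached the expression minimum, grouped by role; coloured points are trials 1 to 3, black marks the mean difference ± SE of the fit with group only, and asterisks mark the genes of the set described here. The 3 differences of C1s1 and of C1ra lie close together above 0 although the error bar is wide, Cd55 lies below 0 in each trial, and C3 stands at 1.93, 2.49 and 2.59.

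Other genes of the cascade were read from a list of 56 arranged by role, which includes the 8. Of these, 17 reached the expression minimum and 39 did not, and 17 of those 39 had no reads. Of the 48 outside the set of 8, 11 were tested, of which 1 rose (C1qbp) and 0 fell by limma with group only. Over all tested genes, that fit called 8.98% higher and 6.1% lower. At an unadjusted p under 0.05, 1 of the 11 was higher and 1 lower (Masp1), where 17.0% of all tested genes were higher and 13.3% lower. With the replicate block 3 of the 11 rose and 2 fell, where 15.4% of all tested genes were called higher and 12.5% lower. The median log2 fold change of the 17 tested genes, which include C3 and other members, was 0.07. It was 0.05 for the 11 outside the set, beside 0.01 over all tested genes.

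C1q, the recognition subunit to which C1r and C1s bind, had no reads: C1qa, C1qb and C1qc were at 0 in all 6 libraries, as were Mbl1 and Mbl2, which encode the mannose-binding lectins. Masp1, which encodes a protease of the lectin pathway, was at 9.18, 11.1 and 13.4 FPKM in TWEAK libraries 1, 2 and 3, against 12.7, 17.7 and 17.7 FPKM in untreated libraries 1, 2 and 3. It was lower with TWEAK in 3 of 3 trials, opposite to C1ra and C1s1, although the groups overlapped. With group only, limma gave an adjusted p of 0.0596 at a log2 fold change of -0.48 (SE 0.15), and an adjusted p of 0.000185 under the block; it also passed without TWEAK replicate 3 (0.0308), without untreated replicate 1 (0.0212) and with limma-voom on recovered reads (0.0499). The authors' deposited table gives -0.52 for Masp1 on the log2 scale (adjusted p = 0.00403). The other tested genes of this role were C1s2, with a log2 fold change of 0.33 (limma adjusted p = 0.178, and 0.011 under the block), and C1rl, a C1r-like protease gene, with 0.05 (limma adjusted p = 0.857).

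Many genes that act beside or after C3 had few reads or none. Cfd, which encodes the protease that cleaves factor B, had no reads, nor had C6, C7, C8a, C8b and C9 of the membrane attack complex. Hc, the mouse gene for C5, had 2 reads with TWEAK and 4 without. Cfp, which encodes properdin, the stabilizer of the alternative convertase, averaged 3.42 FPKM with TWEAK and 3.22 FPKM without (limma adjusted p = 0.654). C8g was at 0.576 FPKM with TWEAK and 0.557 FPKM without (limma adjusted p = 0.916).

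Regulators and receptors other than the members showed 1 call with group only. Cr1l, which encodes Crry, a rodent membrane regulator of C3 convertases, was at 14.4 ± 1.04 FPKM with TWEAK and 13.6 ± 1.42 FPKM without (SD, n = 3 each; limma adjusted p = 0.595). C1qbp, whose product binds C1q and resides largely in mitochondria, rose 1.31-fold, at 58.4 ± 5.61 FPKM with TWEAK and 44.6 ± 0.566 FPKM without (SD, n = 3 each), with a limma adjusted p of 0.0129 (log2 fold change 0.38, SE 0.08). Its call was lost without TWEAK replicate 2 (0.0615), without untreated replicate 2 (0.0518) and with no minimum on the level (0.0548). C3ar1, the receptor of the C3a fragment, had 9, 21 and 20 reads in TWEAK libraries and 6, 11 and 8 in untreated ones, below the minimum. Itgb2, which encodes the shared chain of complement receptors CR3 and CR4, averaged 1.20 FPKM with TWEAK and 0.763 FPKM without (limma adjusted p = 0.173, and 0.0307 under the block). The C5a receptor genes C5ar1 and C5ar2 had no reads.

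**Figure D4:**
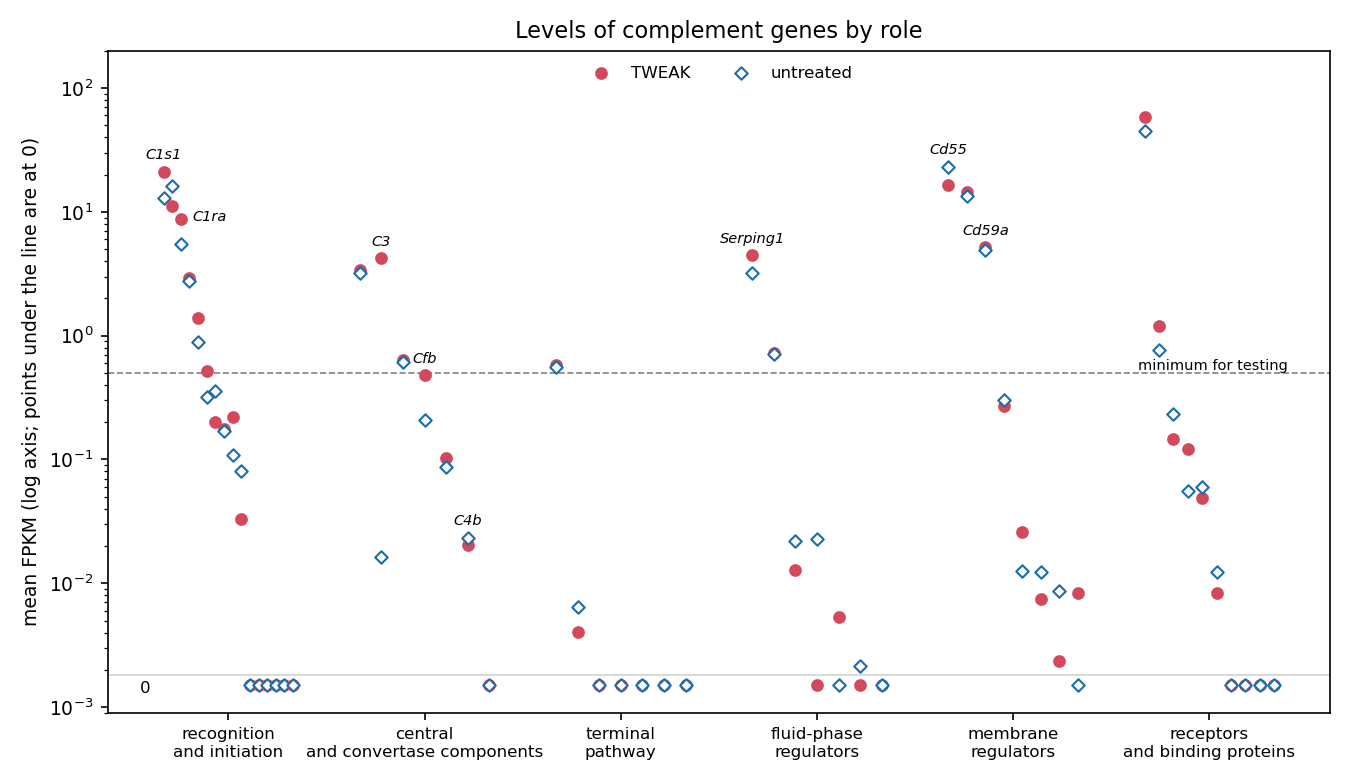
Mean FPKM over 3 libraries of 55 complement genes, by role, in TWEAK and untreated myotubes, on a log axis; points below the lower line are listed at 0, and the dashed line is the expression minimum of 0.5 FPKM. C1qbp is highest, C1s1, Cd55, Cr1l and Masp1 lie above 10 FPKM in both groups, and C3 lies above the dashed line with TWEAK and far below it without.

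Pearson correlation of log2(FPKM + 1) with C3 was taken over the 6 libraries, for genes with a mean of at least 0.5 FPKM. Predicted gene models were left out. The 5 genes most like C3 were Mt2, Sdr9c7, Adam8, Aven and Nmi, with r between 0.9984 and 0.9993. Sdr9c7, at 2.22 FPKM with TWEAK and 0.142 FPKM without, passed the minimum through its TWEAK libraries alone, as C3 did. Mt2, a metallothionein gene, was at 358, 478 and 510 FPKM in TWEAK libraries 1, 2 and 3, against 143, 154 and 153 FPKM in untreated libraries 1, 2 and 3. Adam8, which encodes a membrane metalloprotease, was at 8.63, 12.0 and 12.6 FPKM with TWEAK, against 3.18, 3.50 and 3.23 FPKM without. Like C3, both were lowest in trial 1 among TWEAK libraries, an order that picking genes by correlation with C3 favours. Such r values mostly reflect the gap between the groups, and 542 of 11515 genes (4.71%) had an r above 0.95.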

How the data were processed

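Poly(A)-selected RNA was sequenced from 6 C2C12 libraries, 3 per group by the labels. The submitters' processing notes name genome build GRCm39 and the tools DESeq2 1.22.2, HTSeq 0.6.1p2, STAR 2.6.0c and Trim Galore 0.5.0. Their settings, the annotation and any use of strand were not stated in the sources used here. Each library's expression was deposited as FPKM. The same table also holds the authors' own comparison, per the file headers: a mean normalized count signal, a log2 fold change with its standard error, a test score, and p-values. No source used here says which libraries entered it. Columns of samples left unmapped numbered 0.

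The 8 genes, the wider list, the marker lists and the rules for naming genes were chosen with earlier results of these data known. The named genes were the 8 members, the tested genes of the wider list and the 5 genes most like C3. FPKM were tested as log2(FPKM + 1) with limma-trend (limma 3.58.1, R 4.3.3) on 12770 genes with a mean of at least 0.5 FPKM, group as the only term and Benjamini-Hochberg adjustment over all of them at 0.05. Folds on that scale understate changes of low genes. Reads were recovered as the whole numbers of which the FPKM are multiples. Of 126386 values above 0, 126386 were whole to a relative tolerance of 1e-06, with a common factor chosen for 2923 genes, none of them among the 8. The step of each gene was searched so that its values came out whole, so this share is partly built in. Exact binomial 95% intervals on pooled reads and floors of 3 reads cover counting error only.

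Same-numbered libraries deviated together (correlations of deviations from the group means 0.473, 0.218 and 0.434, against at most -0.02 for other pairs). Deviations cancel within each group, so positive values for same-numbered pairs push those of other pairs below them, and the contrast is partly built in. Libraries with the same number were treated as pairs in the block fits only, a step that rests on this check and not on the labels. The fit with the number as a replicate block is given where it changes a call. The fit with group only was run on simulated data with known changes and no difference between trials. The fits with the block and with limma-voom were not tested in this way. Alternatives were another pseudocount, no minimum and a minimum of 1 FPKM, median-ratio rescaling, limma-voom on recovered reads, the block, and each library left out; voom with the block was chosen after seeing the data. Promoter windows came from RefSeq (GRCm38.p6) and shared 50-base words from GENCODE M21 transcripts. Python 3.11.15, numpy 2.4.6, pandas 2.3.3 and scipy 1.17.1 were used. Values of 1 gene of the wider list, which is in its counts, are not reported here.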

Additional observations from a re-analysis of the deposited data

How the results depend on the processing

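No log2 fold change of a member called in the group-only fit turned its direction under any alternative run. The count of all genes called higher, 1147, was 499 with no minimum on the level, 1965 with the replicate block, 2462 with limma-voom and the block, and 501 to 1266 with 1 library left out. The count called lower, 779, was 302 with no minimum, 1598 with the block, 1567 with limma-voom and the block, and 343 to 835 with 1 library left out. Of the wider list, 3 were called higher, 7 with the block, 7 with limma-voom and the block, and 1 to 3 with 1 library left out, 1 being the count without TWEAK replicate 2 or untreated replicate 2. Each of these counts includes C3, on which the set was picked; without it they are 2, 6, 6 and 0 to 2. Of the same list, 1 was called lower, 0 with no minimum, 3 with the block, 2 with limma-voom, 3 with limma-voom and the block, and 1 to 2 with 1 library left out. The cause of these shifts was not tested. Among the 8 genes, the block moved the calls of C1ra and C1s1 and no other. Median-ratio rescaling moved no gene by more than 0.00819 on the log2 scale. The C3 log2 fold change was 5.18 with a pseudocount of 0.1, 8.34 with limma-voom and 8.20 with limma-voom and the block, since its untreated level is near 0. Depth limits C4b, with 10 reads with TWEAK and 13 without, and the untreated level of C3, with 9.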
